A study of Mus musculus with 12 samples.

Results

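Notch signalling genes of the embryonic mouse cortex were examined as 4 groups by role: the ligands Dll1, Dll3 and Jag1, the receptors Notch1, Notch2 and Notch3, the glycosyltransferases Lfng and Mfng of the Fringe family, and the Hes target genes Hes1 and Hes5. They were taken as all probe sets that the platform annotation assigns to 1 of these genes alone, which gave 17 of 45101 probe sets for 10 of 18194 named genes. The ligands had 5 probe sets, the receptors 6, the Fringe genes 3 and the Hes genes 3. RNA came from rostral or caudal cortex at embryonic day 14, from mice with a knockout of AP2gamma (KO) or from wild-type controls (WT). The targeted gene, Tfap2c, encodes the transcription factor AP2gamma. Each of the 4 groups held 3 biological replicates. Caudal KO arrays were from animals 1, 2 and 13, caudal WT from 4, 6 and 14, rostral KO from 7, 8 and 15, and rostral WT from 10, 12 and 16. How the allele was made, the strain, and whether caudal and rostral pieces came from the same embryos are not given in the sources used here. P-values therefore measure the spread between these samples.

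Notch receptors are cell-surface proteins that are cut when a ligand on a neighbouring cell binds them, and the freed intracellular part enters the nucleus and joins the DNA-binding protein RBPJ to switch on Hes and Hey genes. Hes proteins repress proneural genes, so that a cortical progenitor that receives the signal remains a radial glial cell. A cell with high proneural activity makes ligand, and differentiates. Fringe enzymes add sugars to the receptor and so change which ligands it answers to.

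Values are on the log2 scale as deposited, so a difference of 1 is a doubling of signal. The medians of the 12 arrays ran from 5.21 to 5.22 and their upper quartiles from 7.54 to 7.56. A probe set was tested when it exceeded 5.21, the median of the table, on at least 3 arrays, and each gene is represented by its tested probe set of highest mean. All 10 genes were tested, through 15 of their 17 probe sets. The other two were 1451889_at of Notch2, at or below 5.19 on every array, and 1449943_at of Lfng, at or below 3.78. Differences come from 1 limma fit of all arrays, as KO minus WT or caudal minus rostral with standard error (SE), and a gene passed when its p, adjusted over all 11785 tested genes, was below 0.05. Signals of different probe sets are not compared with each other, since each probe set has its own response. Where linear signals of a marker list are summed, the brightest probe sets weigh most. Such a sum does not show a shift of every marker.

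Tfap2c read 7.67 ± 0.21 (SD, n = 3) in caudal KO against 8.89 ± 0.28 in caudal WT, and 8.28 ± 0.30 in rostral KO against 8.87 ± 0.28 in rostral WT, so signal remained in the KO. Whether its probe set lies in the deleted part was not examined. Genes of the dorsal telencephalon, the labelled tissue, were bright, with a list mean between 9.51 and 10.43 on every array. High Xist, the RNA that coats the inactive X chromosome of females, was seen on 2 arrays alone, at 11.32 in caudal WT animal 6 and 11.89 in rostral WT animal 12. The KO arrays read at most 4.88 in caudal and 5.21 in rostral cortex. By Xist, sex was therefore not balanced between KO and WT. The 4 arrays numbered 13 to 16, of which every group held 1, moved away from their group means together. Correlations of their deviations ran from 0.195 to 0.393 over 6 pairs, against 0.0148 to 0.203 over 24 pairs of animals 1 to 12 from different groups.

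Sequences upstream of the genes were searched for letters that Notch-related factors are known to bind. The RefSeq promoter table (build GRCm38.p6) held 8 of the 10 genes in 9 windows of 250 bases before the transcript start. Hes1 and Mfng were not matched. The core of the RBPJ site, GTGGGAA, was searched on both strands. Hes5 and Lfng held it, and the other 6 matched genes did not. Of 32851 windows in the table, 5.42% held at least 1 match and 0.161% held 2 or more. By gene, 6.18% of 27025 held a match. The letters CAGCTG, a form of the E-box bound by proneural factors, were found for Dll1, Dll3, Jag1 and Lfng. In the whole table, 14.7% of genes and 13% of windows held them. These motifs do not overlap. The windows of 3 genes are shown, Hes5 and Lfng for their RBPJ cores and Dll3 because it is the gene that passed in a comparison. Capitals mark GTGGGAA or its reverse TTCCCAC, and CAGCTG.
Hes5, chr4:154960673-154960922, plus strand: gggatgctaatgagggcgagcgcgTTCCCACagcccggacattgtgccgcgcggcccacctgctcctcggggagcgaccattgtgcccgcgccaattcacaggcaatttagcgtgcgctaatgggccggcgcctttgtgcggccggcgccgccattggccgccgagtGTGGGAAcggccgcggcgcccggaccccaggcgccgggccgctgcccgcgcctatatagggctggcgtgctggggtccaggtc
Lfng, chr5:140607091-140607340, plus strand: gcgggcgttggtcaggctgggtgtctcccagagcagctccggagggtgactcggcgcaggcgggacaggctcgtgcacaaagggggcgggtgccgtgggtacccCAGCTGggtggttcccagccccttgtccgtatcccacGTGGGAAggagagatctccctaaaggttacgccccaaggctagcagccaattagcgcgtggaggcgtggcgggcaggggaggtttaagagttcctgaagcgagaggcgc
Dll3, chr7:28301786-28302035, minus strand: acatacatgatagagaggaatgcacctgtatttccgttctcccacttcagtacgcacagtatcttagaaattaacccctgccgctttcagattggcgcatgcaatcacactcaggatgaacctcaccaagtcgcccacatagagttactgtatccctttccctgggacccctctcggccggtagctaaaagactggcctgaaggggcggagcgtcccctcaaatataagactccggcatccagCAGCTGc
The Hes5 matches stood at bases 226 to 220 before the start, on the reverse strand, and at bases 83 to 77 on the forward strand. The RBPJ core of Lfng stood at bases 109 to 103 and its E-box at 146 to 141. The E-box of Dll3 ended 2 bases before the start. A match describes letters and is not a measured site.

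Among the ligands, Dll3 gave the clearest pattern, lower in caudal than in rostral cortex. Dll3 is a divergent ligand that acts mainly inside the cell that makes it and dampens Notch signalling there. Caudal KO arrays read 8.11, 8.28 and 8.30 for Dll3, with the animals here and throughout in the order given above, and caudal WT arrays read 8.26, 7.99 and 7.59. Rostral KO arrays read 8.80, 8.85 and 8.67, against 8.45, 8.33 and 8.35 for rostral WT. All 6 caudal arrays lay below all 6 rostral arrays, and rostral KO lay above rostral WT without overlap. The means stood in the order rostral KO 8.77 ± 0.09 (SD, n = 3), rostral WT 8.38 ± 0.06, caudal KO 8.23 ± 0.10 and caudal WT 7.94 ± 0.34. The last pair of neighbours in that order overlapped, and the others did not.

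Dll1 encodes the main signalling ligand on young neurons and committed progenitors. It read 9.30, 9.34 and 8.97 in caudal KO and 9.62, 9.27 and 9.14 in caudal WT. It read 9.38, 9.45 and 9.62 in rostral KO and 9.26, 9.57 and 9.25 in rostral WT. The order of the means was rostral KO (9.48 ± 0.12), rostral WT (9.36 ± 0.19), caudal WT (9.34 ± 0.25) and caudal KO (9.20 ± 0.21), and each group overlapped the next.

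Jag1 encodes a ligand of the Serrate type, present in vessels as well as in neural progenitors. Its probe set of highest mean (1434070_at) read 7.93, 7.56 and 8.19 in caudal KO and 8.05, 7.94 and 7.94 in caudal WT. It read 7.94, 8.07 and 8.03 in rostral KO and 7.90, 7.38 and 7.26 in rostral WT. Rostral WT was the low group, below rostral KO and caudal WT without overlap, and it overlapped caudal KO. The means were 8.01 ± 0.07 in rostral KO, 7.97 ± 0.06 in caudal WT, 7.89 ± 0.32 in caudal KO and 7.51 ± 0.34 in rostral WT.

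**Figure D1:**
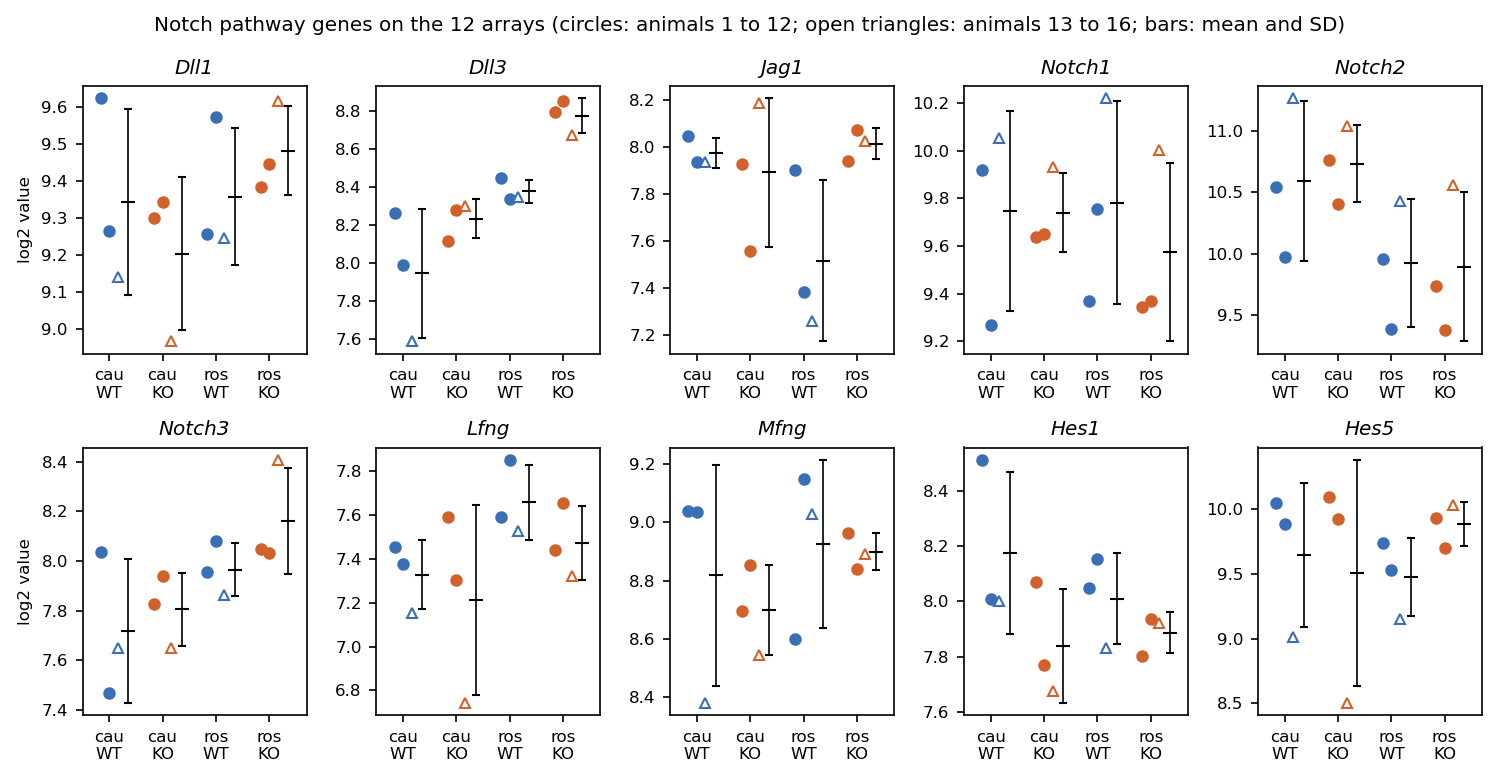
Log2 value of the 10 genes on each array, each gene by its probe set of highest mean, in caudal (cau) and rostral (ros) WT (blue) and KO (orange); bars show the group mean and SD, and each panel has its own scale. Dll3 separates the regions, and the open triangles of animals 13 to 16 are the highest of their group in all 4 groups for Notch1 and Notch2.

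Of the receptors, Notch2 tended to higher values in caudal cortex and Notch3 to lower ones, and Notch1 on its probe set of highest mean showed no order by group. Notch1 is the main receptor of cortical radial glia. On that probe set (1418634_at) it read 9.64, 9.65 and 9.93 in caudal KO and 9.92, 9.27 and 10.05 in caudal WT. In rostral cortex it read 9.35, 9.37 and 10.00 in KO and 9.37, 9.75 and 10.22 in WT. All 4 groups overlapped, with means of 9.74 ± 0.17, 9.75 ± 0.42, 9.57 ± 0.37 and 9.78 ± 0.43 in the same order.

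Notch2 is a second receptor of radial glia. It read 10.76, 10.41 and 11.04 in caudal KO and 10.54, 9.97 and 11.27 in caudal WT. It read 9.74, 9.37 and 10.56 in rostral KO and 9.95, 9.38 and 10.43 in rostral WT. The array of animals 13 to 16 was the highest of its group each time. Within animals 1 to 12 all 4 caudal arrays lay above all 4 rostral ones, but narrowly. The closest were 9.97 in caudal WT animal 6 and 9.95 in rostral WT animal 10. The caudal pair also lay above the rostral pair within animals 13 to 16. The share of tested genes that separate in these sets was not taken, so the separation is a description only. Over all arrays every group overlapped the next, in the order caudal KO (10.74 ± 0.32), caudal WT (10.59 ± 0.65), rostral WT (9.92 ± 0.53) and rostral KO (9.89 ± 0.61).

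Notch3 encodes a receptor best known from pericytes and vascular smooth muscle, and also made by progenitors. Its probe set of highest mean, 1421965_s_at, whose suffix means that it can match more than 1 transcript, read 7.83, 7.94 and 7.65 in caudal KO and 8.04, 7.47 and 7.65 in caudal WT. It read 8.05, 8.03 and 8.41 in rostral KO and 7.95, 8.08 and 7.86 in rostral WT. Rostral KO lay above caudal KO without overlap, with the highest value in animal 15, and the other neighbours overlapped. The means were 8.16 ± 0.21 in rostral KO, 7.97 ± 0.11 in rostral WT, 7.81 ± 0.15 in caudal KO and 7.72 ± 0.29 in caudal WT.

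Neither Fringe gene separated KO from WT in a region. Lfng, which is expressed in ventricular zone progenitors and is itself a Notch-responsive gene, read 7.59, 7.30 and 6.74 in caudal KO and 7.46, 7.37 and 7.15 in caudal WT. It read 7.44, 7.65 and 7.32 in rostral KO and 7.59, 7.85 and 7.53 in rostral WT. Rostral WT (7.66 ± 0.17) lay above caudal WT (7.33 ± 0.16) without overlap, and rostral KO (7.47 ± 0.17) and caudal KO (7.21 ± 0.43) overlapped each other.

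Mfng, the related enzyme found in differentiating progenitors, read 8.70, 8.85 and 8.55 in caudal KO and 9.04, 9.04 and 8.38 in caudal WT. In rostral cortex Mfng read 8.96, 8.84 and 8.89 in KO and 8.60, 9.15 and 9.03 in WT. All 4 groups overlapped, and WT spread more widely than KO in both regions. The means were 8.70 ± 0.15 in caudal KO, 8.82 ± 0.38 in caudal WT, 8.90 ± 0.06 in rostral KO and 8.93 ± 0.29 in rostral WT.

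Neither Hes gene separated the genotypes within a region or the regions within a genotype. Hes1, a Notch effector that keeps radial glia from differentiating, read 8.07, 7.77 and 7.68 in caudal KO and 8.51, 8.01 and 8.00 in caudal WT. In rostral cortex Hes1 read 7.80, 7.94 and 7.92 in KO and 8.05, 8.15 and 7.83 in WT. KO was the lower genotype by the mean in both regions, with overlap in each. The means were 7.84 ± 0.21 against 8.17 ± 0.29 caudally and 7.89 ± 0.07 against 8.01 ± 0.16 rostrally.

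Hes5, the effector most closely tied to Notch activity in the ventricular zone, read 10.09, 9.92 and 8.50 in caudal KO and 10.04, 9.88 and 9.01 in caudal WT on the probe set 1456010_x_at, whose suffix marks possible cross-hybridisation. It read 9.93, 9.70 and 10.03 in rostral KO and 9.74, 9.53 and 9.15 in rostral WT. The lowest array of 3 groups was that of animals 13 to 16, and in rostral KO that array was the highest. The means were 9.51 ± 0.87 in caudal KO, 9.64 ± 0.56 in caudal WT, 9.88 ± 0.17 in rostral KO and 9.47 ± 0.30 in rostral WT, with overlap between all groups. Pooled over the groups, the SD of Hes5 (0.545) and of Notch2 (0.542) exceeded that of 93.7% and 93.6% of tested genes. The median SD was 0.245 for the 10 genes and 0.197 for all tested genes.

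Averaged over both regions, none of the 10 genes passed between KO and WT, where 0.0339% of tested genes passed (4 of 11785). Dll3 had the largest difference, 0.34 ± 0.10 (SE; 95% interval 0.12 to 0.56), or 127% of the WT signal, with an adjusted p of 0.43 (unadjusted p = 0.0052). It was the only one of the 10 at an unadjusted p under 0.05, which 7.53% of tested genes reached. Its difference was positive in all 28 alternative analyses, from 0.25 to 0.42, and its adjusted p was between 0.20 and 0.81. In bulk tissue, fewer cells of a type and less RNA per cell cannot be told apart. Basal progenitor genes moved in the same comparison. Neurod4 (-2.26 ± 0.23, adjusted p = 0.0019) and Eomes (-0.56 ± 0.08, 0.038) passed as lower in KO, 2 of 7 on that list. The others did not pass, and most of them were also lower. The summed linear signal of the 7 ran from 5426 to 5724 in caudal KO against 6226 to 7119 in caudal WT, and from 5395 to 6052 in rostral KO against 6307 to 7129.8 in rostral WT, and its part in the Dll3 difference was not tested.

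The other ligands differed by 0.21 ± 0.13 (Jag1, adjusted p = 0.77) and -0.01 ± 0.10 (Dll1, 0.99). The receptors differed by -0.11 ± 0.17 (Notch1), 0.06 ± 0.25 (Notch2) and 0.14 ± 0.11 (Notch3), and the Fringe genes by -0.15 ± 0.14 (Lfng) and -0.07 ± 0.13 (Mfng). Hes1 stood at -0.23 ± 0.11 (adjusted p = 0.68), with a 95% interval from -0.47 to 0.01. Hes5 stood at 0.14 ± 0.25, with an interval from -0.40 to 0.67, wide enough to hold a change of either sign. In all, 5 of the 10 genes were higher and 5 lower, with a median of 0.02 beside -0.01 for all tested genes. No gene of the 10 was free of overlap in both regions with 1 direction, as 1.18% of tested genes were.

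In caudal cortex 0 of the 10 genes passed, as did 0% of tested genes, and 0 reached an unadjusted p under 0.05 (4.06% of tested genes). Hes1 was nearest with -0.33 ± 0.16 (adjusted p = 0.998), and the values for animals 1 to 12 and for animals 13 to 16 were alike at -0.34 and -0.32. Dll3 stood at 0.29 ± 0.15, but at 0.07 in animals 1 to 12 alone and 0.71 in animals 13 and 14. Of the 10 genes 7 were lower, with a median of -0.10 beside -0.00 for all tested genes. None was free of overlap between KO and WT, against 7.52% of tested genes.

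In rostral cortex 0 of the 10 genes passed, as did 0% of tested genes, and Jag1 and Dll3 reached an unadjusted p under 0.05 (6.69% of tested genes). Jag1 was higher in KO by 0.50 ± 0.18 (95% interval 0.12 to 0.88, adjusted p = 0.65), or 1.41-fold. Dll3 was higher by 0.40 ± 0.15 (0.08 to 0.71, adjusted p = 0.66), or 1.32-fold. These were also the 2 of 10 genes whose KO and WT arrays did not overlap, which 13.0% of tested genes shared. The differences were 0.36 for Jag1 and 0.43 for Dll3 in animals 1 to 12. Between animals 15 and 16, 1 array per genotype, they were 0.77 and 0.32. Without overlap between KO and WT, any such subset must keep the sign, so these values are no further evidence. Hes5 stood at 0.41 ± 0.35 and Notch1 at -0.21 ± 0.24. Markers of vessels and meninges were higher in 1 rostral KO array, animal 15, which also held the highest Notch3 value. The summed linear signal of the meningeal markers tested, 4 of 7, ran from 143 to 1748 in rostral KO and from 135 to 167 in rostral WT. For 6 of 7 pericyte markers it ran from 732 to 1192 against 723 to 758, and for 9 of 10 endothelial markers from 909 to 1281 against 839 to 870. Their part in the values of Jag1 and Notch3 was not tested.

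**Figure D2:**
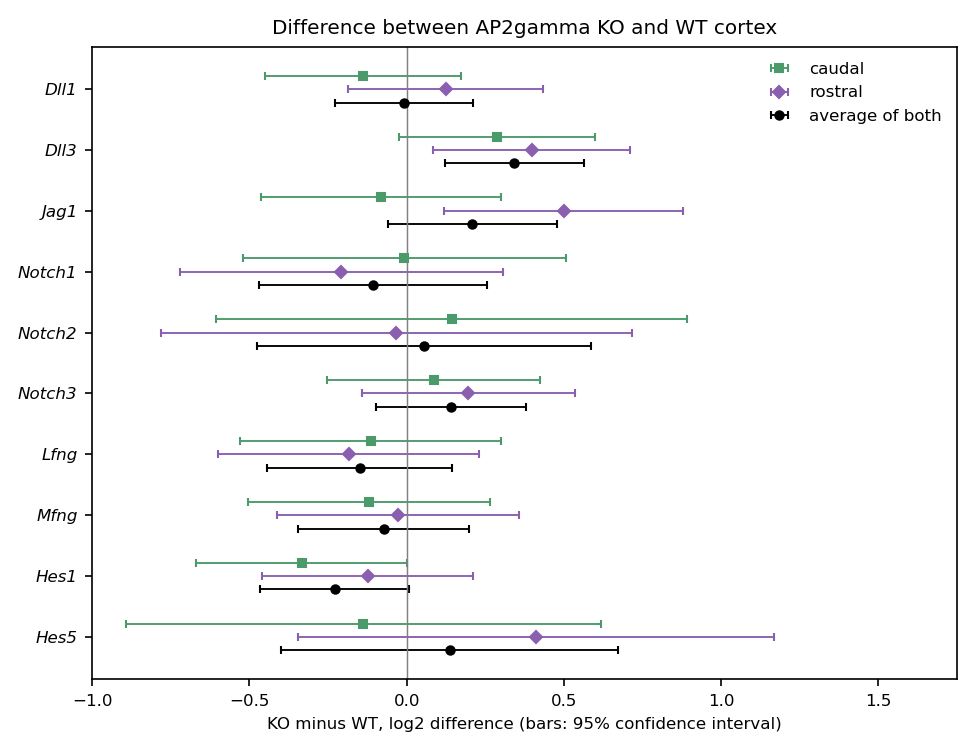
Log2 difference KO minus WT for each gene in each region and for their average, with 95% confidence intervals. The rostral intervals of Jag1 and Dll3 and the averaged interval of Dll3 lie above 0, and no gene passed after adjustment over all tested genes.

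The interaction, which is the KO effect in caudal cortex less that in rostral cortex, passed for 0 of the 10 genes and for 0% of tested genes. It was largest for Jag1, at -0.58 ± 0.25 (unadjusted p = 0.037, adjusted p = 0.999), since Jag1 stood at -0.08 ± 0.18 in caudal and 0.50 ± 0.18 in rostral cortex. An unadjusted p under 0.05 was reached by 3.04% of tested genes. For Hes5 the difference was -0.55 ± 0.50, for Dll1 -0.26 ± 0.20, for Hes1 -0.21 ± 0.22 and for Dll3 -0.11 ± 0.21, so equal effects and sizeable unequal ones both lie within these errors.

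Between regions, averaged over the genotypes, 1 of the 10 genes passed, where 4.46% of tested genes did and 3.21% passed as lower in caudal cortex. That gene was Dll3, which was lower caudally with a difference of -0.49 ± 0.10 (95% interval -0.71 to -0.27, adjusted p = 0.015), or 71.4% of the rostral signal. Animals 1 to 12 gave -0.45 and the set of 13 to 16 gave -0.57. Their shared sign was bound to occur, since every caudal array lay below every rostral one. Over 28 alternatives the adjusted p ran from 0.0041 to 0.051, and the 1 that missed was the fit without the arrays of high Xist, animals 6 and 12 (-0.51, adjusted p = 0.051). A complete separation of 6 caudal from 6 rostral arrays with caudal lower was found for 2.38% of tested genes.

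Notch2 had the largest difference between regions, 0.76 ± 0.25 (95% interval 0.23 to 1.29) or 1.69-fold higher caudally, and did not pass (adjusted p = 0.11). With animals 13 to 16 as a block its SE was 0.13 and its adjusted p 0.0034, and 7.86% of tested genes passed in that fit. Animals 1 to 12 gave a difference of 0.81 and animals 13 to 16 one of 0.66. It passed in 6 of 28 alternatives, among them the fit without rostral KO animal 15 (0.93, adjusted p = 0.045). Notch3 was lower caudally by -0.30 ± 0.11 (adjusted p = 0.17) and Lfng by -0.29 ± 0.14 (0.29), and neither passed. Notch1 stood at 0.07 ± 0.17, Jag1 at 0.17 ± 0.13, Mfng at -0.15 ± 0.13, Dll1 at -0.15 ± 0.10, Hes1 at 0.06 ± 0.11 and Hes5 at -0.10 ± 0.25. Of the 10 genes 6 were lower caudally, with a median of -0.13 beside -0.02 for all tested genes, and 4 reached an unadjusted p under 0.05 (17.3% of tested genes). Notch1, Mfng, Hes1 and Hes5 had opposite signs in the 2 sets of animals, with the widest gap for Hes5, at 0.26 in animals 1 to 12 and -0.83 in animals 13 to 16.

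**Figure D3:**
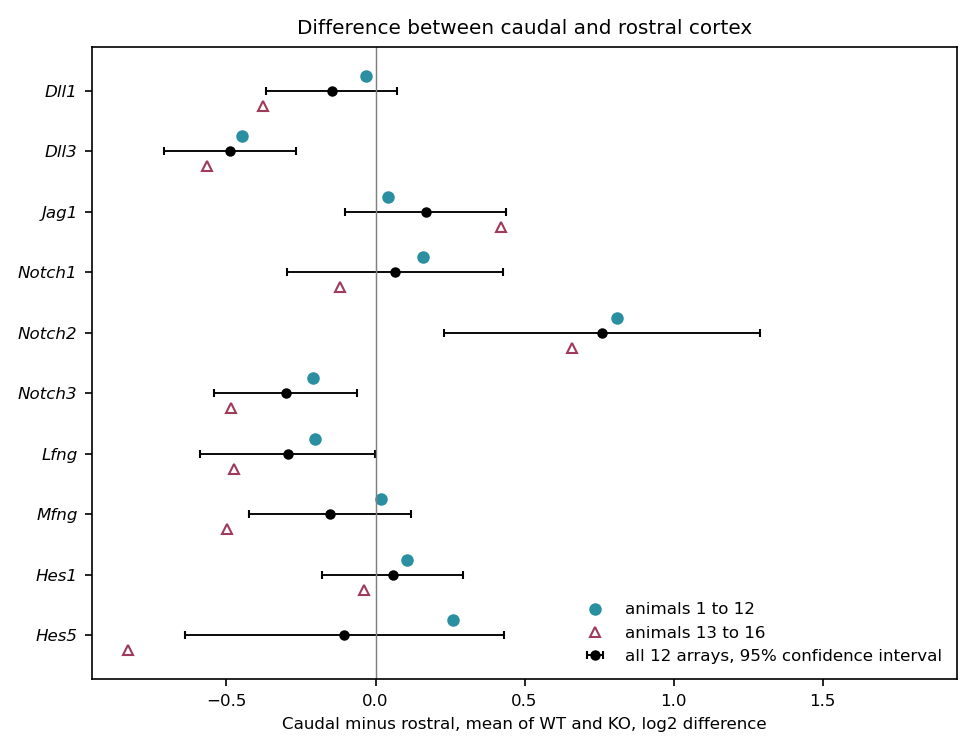
Log2 difference caudal minus rostral, averaged over WT and KO, for all 12 arrays with 95% confidence intervals (black), for animals 1 to 12 (filled circles) and for animals 13 to 16 (open triangles). Dll1, Dll3, Notch3 and Lfng lie below 0 and Jag1 and Notch2 above 0 in both sets of animals. Notch1, Mfng, Hes1 and Hes5 change sign between them. For Dll3 the shared sign was bound to occur, since every caudal array lay below every rostral one.

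Within WT alone 0 of the 10 genes passed between regions (0.942% of tested genes). Dll3 stood at -0.43 ± 0.15 (adjusted p = 0.24), Notch2 at 0.67 ± 0.35 (0.57) and Jag1 at 0.46 ± 0.18 (0.34). An unadjusted p under 0.05 was reached by 2 of the 10 genes and 10.4% of tested genes. Dll3, Jag1 and Lfng did not overlap between the regions, 3 of 10 beside 13.9% of tested genes. Within KO alone 0 of the 10 genes passed (0.950% of tested genes), with Dll3 at -0.54 ± 0.15 (adjusted p = 0.10), Notch2 at 0.85 ± 0.35 (0.31), Notch3 at -0.36 ± 0.16 (0.35) and Dll1 at -0.28 ± 0.14 (0.44). An unadjusted p under 0.05 was reached by 3 of the 10 and 13.2% of tested genes, and Dll1, Dll3 and Notch3 did not overlap (3 of 10, beside 20.9%). With animals 13 to 16 as a block, Notch2 and Dll3 passed within KO (adjusted p = 0.030 and 0.045), where 2.90% of tested genes did, and Dll3 passed without caudal WT animal 14 (0.039). Jag1 stood at -0.12 ± 0.18 in KO, and the interaction given above is the test of this value against the 0.46 of WT.

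Some cell type markers differed between the regions too. Genes of the ganglionic eminence, the ventral tissue that adjoins the cortex and produces interneurons, were lower caudally for 6 of 7 tested markers, and Dlx1, Dlx2 and Dlx5 passed. The summed linear signal of these 7 of 8 markers ran from 1244 to 1562 in caudal KO and from 980 to 1469 in caudal WT. It ran from 1611 to 3869 in rostral KO and from 1703 to 2466 in rostral WT. The 3869 was that of animal 15, and the other rostral KO arrays read 1611 and 2031. Of 7 radial glia markers Pax6 passed, lower caudally with a difference of -0.42 ± 0.06, and of 7 young neuron markers Tbr1 did (-0.63 ± 0.13). Of 7 basal progenitor markers Insm1 passed (-0.34 ± 0.07), and of 6 tested choroid plexus and hem markers Otx2 did (-5.30 ± 1.00). Within each of these lists, from radial glia to choroid plexus and hem, the other tested markers pointed both ways. None of those others passed, so a passing marker does not stand for its list. No marker passed among 4 microglial, 3 red blood cell, 9 endothelial, 6 pericyte, 4 meningeal and 4 dorsal telencephalon genes tested. The part of these cell types in the lower caudal Dll3 was not tested.

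Probe sets of 1 gene are not replicates and were read one by one. The other probe set of Hes5 (1423146_at) followed the first across the 12 arrays (r = 0.86), reading 8.49, 8.10 and 7.40 in caudal KO and 8.72, 8.17 and 7.73 in caudal WT, with 8.08, 8.45 and 8.23 in rostral KO and 8.29, 8.31 and 7.76 in rostral WT. For the others r was between -0.34 and 0.41, given as a description over arrays that share groups. In rostral cortex, 1421106_at of Jag1 read 6.42, 6.43 and 6.13 in KO and 5.50, 5.65 and 5.75 in WT, again with KO higher and no overlap (0.70 ± 0.26, adjusted p = 0.75 over all tested probe sets). By their probe sets of highest mean, 13.0% of tested genes did not overlap in this comparison. No such share was taken over the further probe sets. The third probe set of Jag1, 1421105_at, lay near the median of the table, reading 4.43, 4.38 and 5.82 in KO and 5.11, 5.09 and 4.61 in WT (-0.06 ± 0.39).

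The lower probe set of Notch1, 1418633_at, read 6.32, 6.20 and 6.23 in rostral KO and 6.77, 6.63 and 6.63 in rostral WT. KO was lower without overlap, beside the same 13.0% of tested genes. Its difference was -0.43 ± 0.15 (adjusted p = 0.75), the same sign as that of 1418634_at. In caudal cortex it read 6.53, 6.68 and 6.43 in KO and 6.64, 6.32 and 6.70 in WT, and overlapped. Notch3 had probe sets of opposite sign between KO and WT in rostral cortex, with 0.20 ± 0.16 on 1421965_s_at and -0.32 ± 0.30 on 1421964_at. The latter read 5.85, 5.47 and 5.71 in KO and 5.55, 6.49 and 5.94 in WT, and the mean of both probe sets gave -0.06. Between regions both Notch3 probe sets were lower caudally, at -0.30 ± 0.11 and -0.23 ± 0.21.

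**Figure D4:**
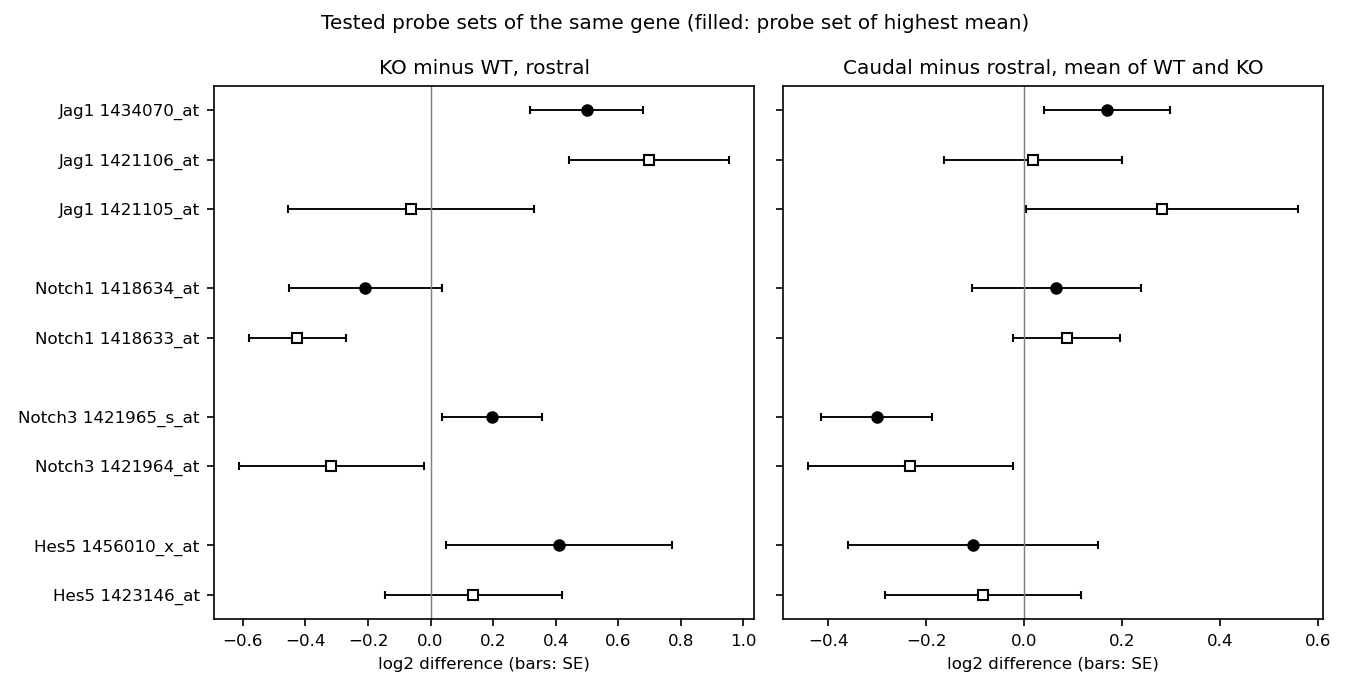
Log2 difference with SE for every tested probe set of the genes with more than 1, KO minus WT in rostral cortex (left) and caudal minus rostral averaged over genotypes (right); filled points are the probe sets of highest mean, open squares the others. The brighter 2 Jag1 probe sets lie above 0 in rostral cortex and both Notch1 probe sets below 0, whereas those of Notch3 point opposite ways.

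The arrays of animals 13 to 16 stood apart for 3 of the 10 genes. Notch1 and Notch2 were highest on these arrays in all 4 groups, which 6.35% of tested genes shared, with mean shifts of 0.51 and 0.81 against the other arrays of the group. Lfng was lowest there in all 4 groups, as were 10.4% of tested genes, with a mean shift of -0.35. Hes5 had a mean shift of -0.68 and was lowest in 3 groups, with its largest shift, -1.50, in caudal KO animal 13. The labels name no batch.

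Genes most like 4 of the 10 across the 12 arrays were found by Pearson correlation over all tested genes, as a description over arrays that share the same groups. Notch1 was followed most closely by Fasn (r = 0.970, rho = 0.916), which encodes fatty acid synthase, Helz (0.957, 0.923) and Rc3h1 (0.952, 0.895). Dll1 was followed by Hpcal1 (0.962, 0.937), Tmem107 (0.944, 0.986) and Plod2 (0.922, 0.783). Lfng was followed by Tesk2 (0.947, 0.832), Fancd2 (0.946, 0.818) of the Fanconi DNA repair pathway and Parp16 (0.924, 0.804). Hes5 was followed by Tspan8 (0.940, 0.867), Pigx (0.924, 0.958) and Ift22 (0.923, 0.706). None of these 12 genes is among the ligands, receptors, Fringe or Hes genes.

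The rest of the pathway was read from 64 further genes in 9 role groups, of which 58 were named in the table and 54 tested. Averaged over regions 0 of the 54 passed between KO and WT, with 30 higher and 24 lower, a median of 0.02 beside -0.01 for all tested genes, and 5 at an unadjusted p under 0.05, which 7.53% of tested genes reached. Those of smallest p were Psenen, a subunit of the gamma-secretase that cuts the receptor (-0.13 ± 0.05, adjusted p = 0.58), the coactivator Maml1 (0.24 ± 0.10, 0.62), the atypical ligand Dner (0.28 ± 0.12, 0.62) and the effector Hey1 (-0.34 ± 0.15, 0.63). By role the medians were 0.03 for receptors and ligands, -0.03 for Fringe, glycosylation and receptor maturation, 0.05 for receptor cleavage, 0.10 for ligand ubiquitination, -0.00 for inhibitors and for the nuclear complex, 0.02 for co-repressors, -0.19 for other Hes and Hey genes and 0.02 for proneural genes. Rbpj, the DNA-binding partner of the cut receptor, differed by -0.04 ± 0.06, Hes6, a Hes protein that promotes neuronal differentiation, by -0.04 ± 0.08, and the proneural factor Neurog2 by -0.09 ± 0.11. Dll4, a ligand of blood vessels, was dim, with means between 4.68 and 4.88 in the 4 groups.

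In caudal cortex 0 of 54 passed (32 higher, 22 lower), and the smallest p was that of the Fringe gene Rfng (0.29 ± 0.10, adjusted p = 0.998), followed by Dtx3 (0.20 ± 0.09), Fbxw7 (0.21 ± 0.10) and Psenen (-0.14 ± 0.07). In rostral cortex 0 of 54 passed (27 higher, 27 lower), with the co-repressor Ctbp2 (0.22 ± 0.09, adjusted p = 0.70) ahead of the protease Adam10 (0.21 ± 0.09), Dner (0.37 ± 0.17) and Maml1 (0.29 ± 0.14). For the difference of the KO effects 0 of 54 passed, and 2, Fbxw7 (0.35 ± 0.14) and Rfng (0.33 ± 0.14), reached an unadjusted p under 0.05, beside 3.04% of tested genes.

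Between regions averaged over genotypes 3 of the 54 passed, all lower in caudal cortex, beside 4.46% of tested genes in either direction and 3.21% as lower, so the share was near that of all genes. They were the co-repressors Ctbp2 and Ctbp1 and the ubiquitin ligase Dtx3. Ctbp2, a co-repressor recruited to Notch targets, read 10.71, 10.88 and 10.67 in caudal KO, 10.78, 10.75 and 10.61 in caudal WT, 11.16, 11.28 and 11.30 in rostral KO and 11.18, 10.92 and 10.98 in rostral WT. All caudal arrays lay below all rostral ones, as they did for 2.38% of tested genes. Ctbp2 differed by -0.40 ± 0.06 (adjusted p = 0.0024, and past the threshold in 28 of 28 alternatives). Its other probe set gave -0.21 ± 0.09 (adjusted p = 0.33). The related Ctbp1 was at -0.19 ± 0.04 (adjusted p = 0.014), also with all caudal arrays below all rostral ones. Dtx3, a deltex ubiquitin ligase, was at -0.33 ± 0.07 (0.012), with overlap. Neither of these passed in animals 1 to 12 alone (adjusted p = 0.086 and 0.076) or without animals 6 and 12 (0.063 and 0.052), and Ctbp1 did not without the intensity trend (0.078). In all 38 of 54 were lower, with a median of -0.08 beside -0.02 for all tested genes. Of 10 co-repressors 9 were lower, with a median of -0.13. The exception was Tle2, a Groucho-type co-repressor named here after its values were seen, which stood at 0.59 ± 0.17 (adjusted p = 0.067), farther from 0 than Ctbp2, and did not pass. Within WT 0 of 54 passed (0.942% of tested genes), and within KO 1 did (0.950% of tested genes), Ctbp2 (-0.49 ± 0.09, adjusted p = 0.019). Rbpj (0.04 ± 0.06), Hes6 (-0.11 ± 0.08), Neurog2 (-0.32 ± 0.11, adjusted p = 0.15) and Dll4 (0.14 ± 0.33) did not pass between regions.

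**Figure D5:**
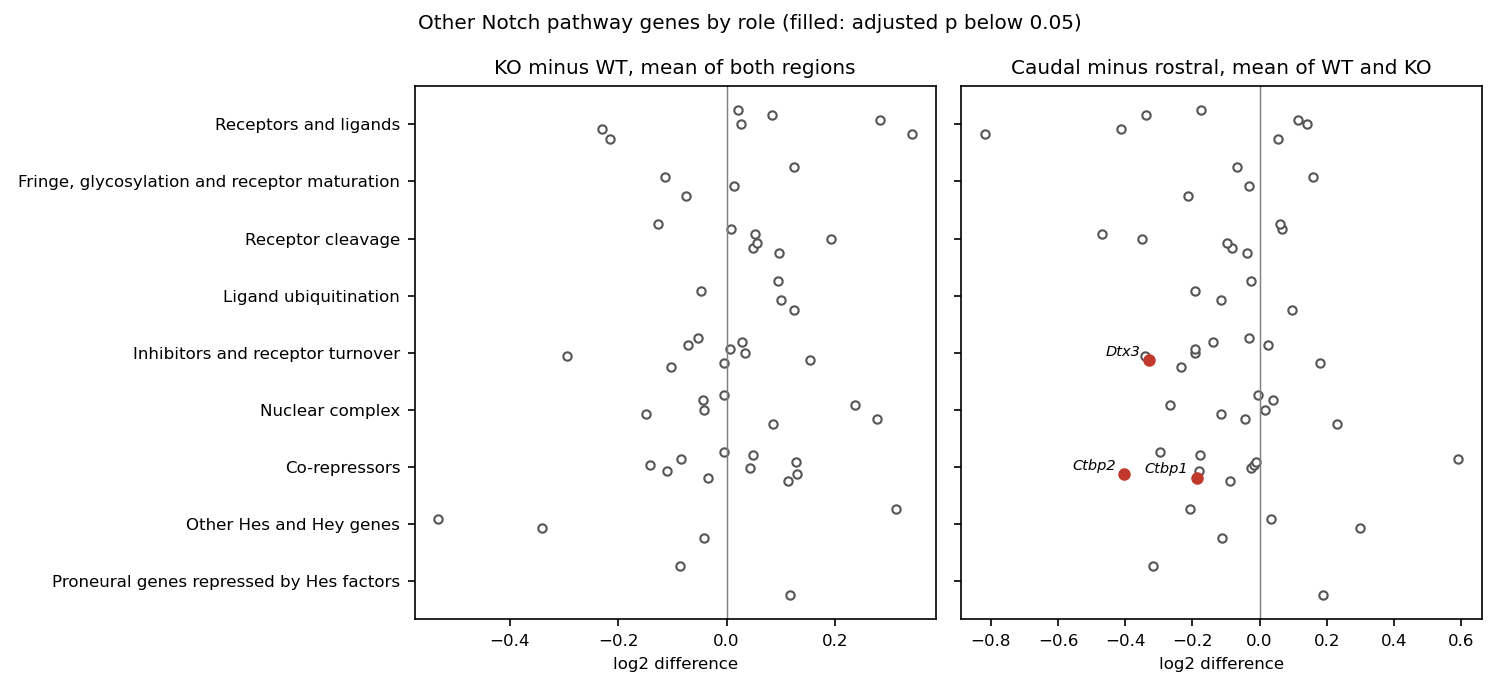
Log2 differences of the 54 other tested pathway genes by role group, KO minus WT averaged over regions (left) and caudal minus rostral averaged over genotypes (right); each point is a gene and filled points passed. No gene is filled on the left, and Dtx3, Ctbp2 and Ctbp1 are filled below 0 on the right.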

How the data were processed

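RNA (400 ng in total per sample, amplified and biotin-labelled, per the labels' protocols) was measured on 1-colour arrays. The deposited table holds 1 log2 value per probe set and array, from -3.81 to 14.02. The unit was read from the values, since the methods of normalisation and summarisation are not given in the sources used here. Gene names came from the platform annotation: 34958 probe sets name 1 gene, and 932 with several and 9211 with none were not analysed by gene. The filter left 24676 probe sets. All 12 arrays entered 1 fit of group means with limma 3.58.1 in R 4.3.3 (empirical Bayes moderation with trend, 8 residual degrees of freedom and a prior of 5.37). P-values are two-sided, adjusted by Benjamini-Hochberg over all tested genes, in 7 comparisons. Probe sets beside the brightest were refitted with all tested probe sets. The fit was tested on simulated data, for KO against WT averaged over regions. The simulation held 11865 genes, of which 182 changed, with independent noise on each array. The fit recovered 86.2% of changes of 1 and 49.5% of changes of 0.5 on the log2 scale, and called 11 unchanged genes. These rates depend on how many genes change, and arrays that move together were not simulated. Comparisons within 1 region or genotype and the interaction have larger SEs and were not simulated. A real change of 0.5 or less can thus fail to pass. Alternatives were other scalings, filters, moderations, animal sets, covariates and each array left out. The genes and the pathway and marker lists were chosen with earlier results of these data known. Named genes are the 10 genes, the pathway genes past the threshold or up to 4 of smallest p, Hes6, Rbpj, Neurog2 and Dll4, and the 3 genes most like Notch1, Dll1, Lfng and Hes5. Marker genes were named where they passed. Some listed pathway genes were not analysed here.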

Additional observations from a re-analysis of the deposited data

How the results depend on the processing

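In the KO comparisons and their difference, 0 of the 10 genes passed with limma under every alternative run. Between regions averaged over genotypes the count was 1, and it was 2, Dll3 and Notch2, with array weights, animals 13 to 16 as a block, animals 1 to 12 only, Xist as a covariate, and block and Xist together (a fit chosen after seeing the data). The count was 0 without animals 6 and 12, and from 1 to 2 with each array left out in turn, with 2 without rostral KO animal 15. Within KO it was 1 with array weights (Dll3), 2 with the block and 1 with block and Xist (Notch2), and from 0 to 1 with each array left out, with 1 (Dll3) without caudal WT animal 14. Within WT it was 1 with block and Xist (Notch2). The causes were not tested. Over all tested genes the KO count averaged over regions was 4, and 20 with the block, 10 with array weights, 1 in animals 1 to 12 only and 1 without animals 6 and 12. Between regions averaged over genotypes it was 526, 926 with the block and 353 in animals 1 to 12 only. No called difference changed sign. The fit of only the groups compared is the same as the fit of all groups for averaged comparisons and was not repeated. No paired analysis was possible because every array has an animal number of its own, so the groups compared share no replicate numbers. The 3 arrays per group limit the precision of every value.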
